A study of Homo sapiens with 12 samples.

Results

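Antisense long noncoding RNAs are transcripts named for the gene they lie against. The set described here holds every gene in the table whose symbol ends in -AS with an optional number and whose level reached 1 FPKM in at least 3 of 12 libraries. FPKM counts sequenced fragments relative to transcript length and to the fragments mapped in a library. Of 1832 such symbols among 60658 rows, 350 passed, 1482 did not, and 733 of the latter are listed at 0 in every library. The annotation calls 347 of the 350 long noncoding RNAs and 3 pseudogenes.

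All libraries come from K-562, a human erythroleukemia line, and the study compared 4 groups of 3. The control group (siRNA_Control) is a stable line that expresses only the 3xTY1 tag and received a non-targeting siRNA. The knockdown group (MYB_KnockDown) is the same tag-only line given an siRNA against MYB, a transcription factor of blood cell progenitors. In the rescue groups (MYB-WT_Rescue and D152V_Rescue) other stable lines, carrying tagged wild-type MYB or its D152V form, received the MYB siRNA. Every line was selected with G418, and RNA was collected 24 h after transfection. Each rescue group is a single line, so the line and the MYB form it carries cannot be told apart. The design text calls the 3 replicates individual experiments.

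MYB itself stood at 120 ± 14.2 FPKM in the controls, 30.2 ± 3.59 after knockdown, 124 ± 8.87 with wild-type MYB and 91.1 ± 8.11 with D152V (mean ± SD, n = 3 each). Whether the tagged copies add to that row is not known. All 12 erythroid markers examined reached 1 FPKM in every library, between 4.15 and 3300 FPKM. Among markers of other cell types, CD3D, LYZ and EPCAM also did so, while CD2, CD14, KRT5, VWF and CDH5 were at or near 0. MYB_KnockDown replicate 1 stands apart: its FPKM total is 1215578 against 672616 to 798362 elsewhere, and its r with knockdown replicates 2 and 3 was 0.930 and 0.929, where every other within-group pair reached at least 0.983. In that library 96 of the 350 antisense RNAs lay more than 1 log2 unit from the control mean, against 6 and 11 in replicates 2 and 3. Counts of antisense RNAs and many other results involving the knockdown are therefore also given without MYB_KnockDown replicate 1, but not every change of a single gene.

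Antisense transcripts are made from the strand opposite to a gene, from their own promoter or from a promoter that fires in both directions. Some act on the neighbouring gene, for instance by recruiting chromatin regulators or by pairing with its RNA, others act far from their site of synthesis, and for most no function is known. Their levels are usually below those of protein-coding genes, and a shared promoter can make both transcripts rise and fall together.

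In this set 324 antisense RNAs overlap the gene named before -AS (hereafter the partner) on the opposite strand, 16 start head to head with it without overlap, 3 lie on the opposite strand in another arrangement, 2 lie on the same strand and 5 have no row for a partner. The partner of 281 passed the same filter, giving 281 pairs with 278 distinct partners. Where exons of both genes cover the same bases, fragments can be assigned correctly only by strand. The library kit was stranded, but the sources used here do not say whether the counting used strand. Some exonic sequence of 256 antisense RNAs lies under another tested gene, with a median of 8.20% of exonic bases over all 350, and 94 have none.

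Promoters of 4 antisense RNAs are shown as examples. These genes recur in the comparisons, and their windows are clear of any protein-coding gene in RefSeq. STEAP1B-AS1 meets both conditions too, but its window, which holds no match to the motif described below, is not shown. Each window runs from 250 bases before to 50 bases after the start, in GRCh38.p14. ENTPD3-AS1 lies at chr3:40453259-40453558 on the minus strand, KIF25-AS1 at chr6:167997028-167997327 on the minus strand, MCM3AP-AS1 at chr21:46228981-46229280 on the plus strand and OIP5-AS1 at chr15:41283740-41284039 on the plus strand. Capitals mark a match to any of 4 spellings of the MYB core on either strand. These spellings are CAACTG besides CAACGG with another letter near its end, followed by TAACTG with another letter at its start, and finally TAACGG with both.
ENTPD3-AS1: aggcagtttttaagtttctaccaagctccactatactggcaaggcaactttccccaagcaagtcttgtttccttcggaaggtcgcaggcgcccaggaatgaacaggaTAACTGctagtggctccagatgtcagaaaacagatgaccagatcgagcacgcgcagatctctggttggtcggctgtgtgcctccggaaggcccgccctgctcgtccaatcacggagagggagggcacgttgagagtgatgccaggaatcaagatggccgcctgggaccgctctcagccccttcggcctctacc
KIF25-AS1: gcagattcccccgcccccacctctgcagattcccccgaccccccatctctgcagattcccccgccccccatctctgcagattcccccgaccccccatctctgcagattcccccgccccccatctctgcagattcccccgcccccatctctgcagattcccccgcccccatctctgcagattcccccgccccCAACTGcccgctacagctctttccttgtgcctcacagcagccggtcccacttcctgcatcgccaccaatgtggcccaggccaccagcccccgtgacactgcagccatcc
MCM3AP-AS1: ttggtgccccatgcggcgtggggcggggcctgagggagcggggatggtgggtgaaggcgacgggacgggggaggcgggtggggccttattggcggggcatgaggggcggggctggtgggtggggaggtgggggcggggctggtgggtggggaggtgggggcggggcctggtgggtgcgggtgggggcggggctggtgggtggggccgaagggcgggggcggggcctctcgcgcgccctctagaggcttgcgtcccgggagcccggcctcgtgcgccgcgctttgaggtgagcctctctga
OIP5-AS1: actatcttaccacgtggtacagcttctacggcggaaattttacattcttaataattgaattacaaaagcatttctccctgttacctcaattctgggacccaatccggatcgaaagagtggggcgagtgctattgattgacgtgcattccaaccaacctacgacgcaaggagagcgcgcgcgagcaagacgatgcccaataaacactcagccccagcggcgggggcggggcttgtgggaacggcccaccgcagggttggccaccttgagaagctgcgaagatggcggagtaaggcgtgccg
The ENTPD3-AS1 and KIF25-AS1 windows hold 1 match each and the other two hold none. Of the 254 antisense RNAs with a RefSeq promoter, 65 (25.6%) hold at least 1 match, beside 7062 of 27305 (25.9%) over all RefSeq promoters of the same length. A match describes letters only. In 45 of the 187 pairs with both promoters in RefSeq the windows of the antisense RNA and its partner overlap.

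The antisense RNAs were low. Their mean level over 12 libraries had a median of 2.69 FPKM, with quartiles of 1.32 and 6.35, while the median was 17.9 FPKM for the partners and 11.7 FPKM for all 13393 genes tested. The 281 pairs leave out 64 antisense RNAs whose partner was under the filter, so the levels in pairs cover tested partners only. In these pairs the antisense RNA lay below its partner in 224 and above it in 57, and its median level was 17.4% of the partner's. Its exons were also shorter in total, with a median of 2902 bases against 5700 for the partners. Only 20 of the 350 averaged 20 FPKM or more, and 236 averaged under 5 FPKM. Of all 350, 281 reached 1 FPKM in at least 1 library of every group and 196 did so in all 12 libraries. Another 12 reached it in the libraries of a single group: 0 in the controls, 3 in the knockdown, 5 with wild-type MYB and 4 with D152V.

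**Figure D1:**
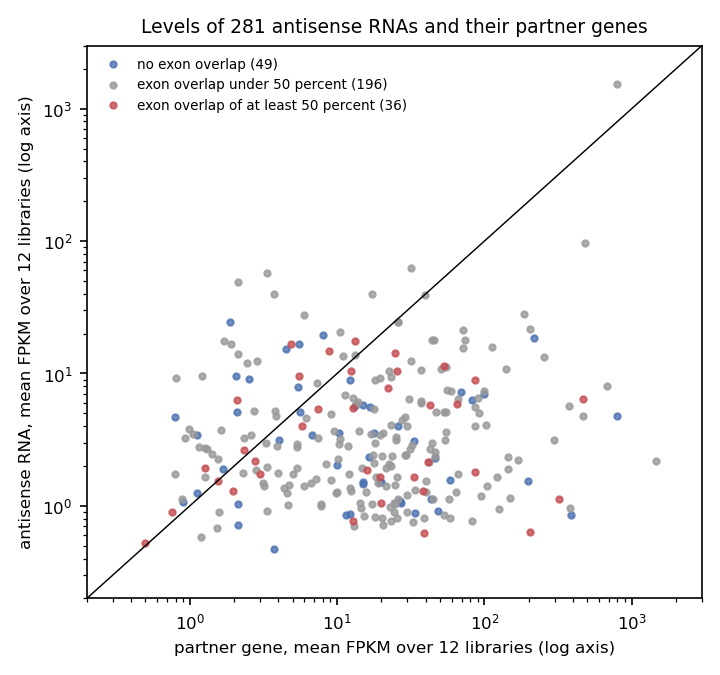
Mean FPKM over 12 libraries of each antisense RNA against that of its partner for 281 pairs, both axes logarithmic, with the line of equal levels. Points below the line (224) have the antisense RNA under its partner, and TUBA1B-AS1 is the highest at 1538 FPKM.

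TUBA1B-AS1, opposite the alpha-tubulin gene TUBA1B, was the most abundant, at a mean of 1538 FPKM against 794 for TUBA1B, and 34.0% of its exonic bases lie under TUBA1B. Its control libraries held 1444, 1450 and 1368 FPKM, the knockdown libraries 2881, 1226 and 1144, the wild-type rescue 1413, 1515 and 1371, and the D152V rescue 1620, 1508 and 1515. Only MYB_KnockDown replicate 1 stood high, and in the same library TUBA1B was at its lowest, 284 FPKM against 462 or more elsewhere. The next in order were TMEM132D-AS1 (98.1 FPKM), ALDH1A2-AS1 (96.7), OTUD6B-AS1 (62.6), VPS9D1-AS1 (57.0), B3GALT1-AS1 (49.2), FGD5-AS1 (46.7), NUTM2A-AS1 (42.7), NUTM2B-AS1 (39.9) and THAP9-AS1 (39.7). NUTM2A-AS1 and NUTM2B-AS1 are near-identical in sequence, which makes the division of fragments between them uncertain. ALDH1A2-AS1 showed how far a single library can reach: it held 8.99 FPKM in MYB_KnockDown replicate 1 and 256 and 115 in the others of that group. Several abundant antisense RNAs have partners that were barely expressed, among them TMEM132D-AS1 and FGD5-AS1, whose partners averaged 0.00138 and 0.0122 FPKM.

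Changes between groups were tested with limma on log2(FPKM + 1), a scale that understates changes of low genes, in a single fit of 12 libraries with Benjamini-Hochberg adjustment over 13393 genes. A gene is called when its adjusted p is under 0.05, and each log2 change carries its standard error (SE). Over the 6 comparisons 132 antisense RNAs were called at least once and 218 in none. In every comparison the called share of the antisense RNAs was below that of all genes tested and below that of their partners; these shares were not tested against each other. In the knockdown against the control the share rose with level among all genes, from 3.83% under 2 FPKM to 16.5% at 20 FPKM or more. Of the 142 antisense RNAs under 2 FPKM 4.93% were called, and of the 20 at 20 FPKM or more 5.0%. In the D152V rescue against the wild-type rescue the share of all genes went down over the same levels, from 17.2% to 9.44%. It also went down in both rescues against the control, from 12.3% to 7.2% (wild-type) and from 12.9% to 7.12% (D152V). The part of level in the lower antisense shares was not tested. Fewer cells expressing a transcript and less RNA per cell cannot be told apart in these bulk libraries.

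**Figure D2:**
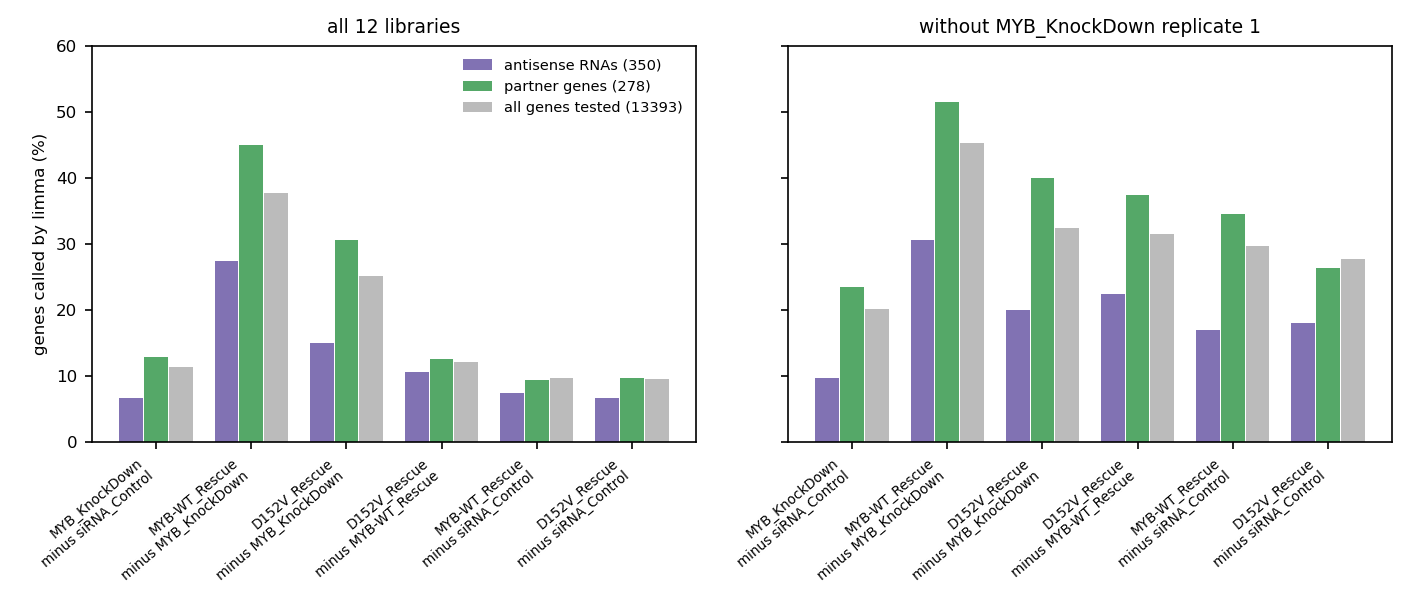
Percent of antisense RNAs, of their partners and of all tested genes called in either direction in each of 6 comparisons by limma at an adjusted p under 0.05, with all 12 libraries (left) and without MYB_KnockDown replicate 1 (right). On the left the antisense share lies between 6.57% and 27.4%, under the share of all genes in each comparison.

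Lowering MYB left most antisense RNAs without a call. After knockdown 11 were higher and 12 lower than in the control (6.57% of 350), against 11.3% of all genes, of which 3.94% were higher and 7.38% lower. Their median change was 0.06, beside -0.03 over all genes, and without MYB_KnockDown replicate 1 it was 0.0069, beside -0.037. The partners had 7 higher and 29 lower (12.9%), and 16 and 49 (23.4%) without MYB_KnockDown replicate 1. The antisense RNAs that fell include HNRNPK-AS1, TAB3-AS2, ZNF385D-AS1, DHRS4-AS1, GTF3C2-AS1, MCM3AP-AS1, ZBED9-AS1, AFAP1-AS1 and OTUD6B-AS1, and those that rose include TTC28-AS1, BAZ2B-AS1, DDX11-AS1, HECW2-AS1, MUC12-AS1, ENTPD3-AS1, NFATC2IP-AS1 and SCOC-AS1.

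ZNF385D-AS1 (chr3:21542789-21579959), which lies in the locus of a zinc finger gene and has no exon under another tested gene, held 11.3, 11 and 13.9 FPKM in the controls, 4.28, 4.99 and 4.56 after knockdown, 5.58, 9.18 and 10.9 with wild-type MYB and 6.39, 5.87 and 5.30 with D152V. All knockdown libraries lay under all controls. Its change was -1.21 (SE 0.20, adjusted p = 0.00712, limma), and -1.17 without MYB_KnockDown replicate 1 (adjusted p = 0.00366). Its partner was under the filter, with a mean of 0.0601 FPKM.

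GTF3C2-AS1 (chr2:27335542-27337803) lies against the gene of a subunit of the transcription factor that recruits RNA polymerase III, and 33.4% of its exonic bases fall under it. The antisense RNA held 8.06, 10.0 and 7.91 FPKM in the controls and 2.72, 4.34 and 5.48 after knockdown. GTF3C2 held 60.8, 51.4 and 55.5 and then 27.1, 28.7 and 29.5. Both fell by similar amounts with no overlap between groups: the changes were -0.93 (SE 0.20, adjusted p = 0.0195, limma) and -0.95 (SE 0.14, adjusted p = 0.00525). OTUD6B-AS1 and OTUD6B, a deubiquitinase gene that starts 387 bases away on the other strand, also moved alike. OTUD6B-AS1 held 65.4, 65.7 and 57.6 FPKM in the controls and 41.7, 37.3 and 42.9 after knockdown, groups that do not overlap. It fell by 0.62 (SE 0.11, adjusted p = 0.011), while OTUD6B had -0.71 (adjusted p = 0.0586, and 0.0087 without MYB_KnockDown replicate 1). SCOC-AS1 (1.14, adjusted p = 0.0429) and SCOC (0.33, adjusted p = 0.0497) were both called higher.

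BAZ2B-AS1 was the antisense RNA called against the direction of its called partner. BAZ2B encodes a bromodomain protein of chromatin, and 12.3% of the exonic bases of BAZ2B-AS1 (chr2:159615294-159618042) lie under it. BAZ2B-AS1 held 3.81, 3.56 and 4.04 FPKM in the controls and 7.60, 5.71 and 5.86 after knockdown. BAZ2B held 6.60, 7.18 and 5.87 and then 1.62, 3.90 and 4.37. The groups overlap for neither gene. BAZ2B-AS1 rose by 0.61 (SE 0.13, adjusted p = 0.0199) and BAZ2B fell by 0.88 (SE 0.22, adjusted p = 0.0325). Without MYB_KnockDown replicate 1 the changes were 0.50 and -0.55.

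Other antisense RNAs were called while the partner was not. TTC28-AS1 (chr22:27919376-28002679) held 13.8, 13.7 and 14.6 FPKM in the controls and 27.6, 22.1 and 21.2 after knockdown. The groups do not overlap, and the rise of 0.71 (SE 0.13, adjusted p = 0.0101) stood beside -0.39 for TTC28 (adjusted p = 0.147). DHRS4-AS1, opposite a dehydrogenase gene, held 8.89, 10.1 and 8.41 FPKM in the controls and 2.98, 4.91 and 5.20 after knockdown, with no overlap. It fell by 0.94 (SE 0.20, adjusted p = 0.0179) beside 0.00 for DHRS4. MCM3AP-AS1, opposite a gene of messenger RNA export, held 8.63, 8.12 and 7.31 FPKM in the controls and 2.70, 5.27 and 5.27 after knockdown. Here too no knockdown library reached a control: the change was -0.77 (SE 0.20, adjusted p = 0.0351) beside 0.13 for MCM3AP. HNRNPK-AS1, whose exonic bases lie to 79.2% under the abundant RNA-binding protein gene HNRNPK, had the largest decrease at -1.89 (SE 0.43, adjusted p = 0.0233), beside -0.37 for HNRNPK (adjusted p = 0.33). It was listed at 0 in MYB_KnockDown replicate 1 and held 3.17 and 2.24 FPKM in the others, against 6.28 to 10.3 in the controls. GATA2-AS1, at the locus of the blood stem cell factor GATA2, had -0.34 (adjusted p = 0.0664, and 0.0291 without MYB_KnockDown replicate 1).

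These calls rest on few libraries. Without MYB_KnockDown replicate 1 the counts were 14 higher and 20 lower (9.71%, against 20.1% of all genes, 7.26% higher and 12.9% lower), and of the 16 most changed antisense RNAs AFAP1-AS1, SCOC-AS1 and TAB3-AS2 lost their call, at adjusted p of 0.0611 to 0.0681. The 23 calls became 2, 1 and 8 without siRNA_Control replicates 1, 2 and 3, and 14, 15 and 10 of those 16 lost their call, at adjusted p of up to 0.137, 0.170 and 0.105. They became 45 and 35 without MYB_KnockDown replicates 2 and 3, 12, 12 and 15 without D152V_Rescue replicates 1, 2 and 3, and 11 and 14 without MYB-WT_Rescue replicates 1 and 2. With only the 6 compared libraries limma called 0, although 52 had an unadjusted p under 0.05. Quantile normalization gave 19 higher and 13 lower and median-ratio scaling 15 and 11. Among these alternatives the share of all genes is given only without MYB_KnockDown replicate 1. In MYB_KnockDown replicate 1, 9 of the 17 antisense RNAs under 500 bases and 87 of the 333 longer ones lay over 1 log2 unit from the control mean, against 2 and 3 of the short and 4 and 8 of the longer in replicates 2 and 3. The part of transcript length in these values was not tested.

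Both rescues were set against the knockdown. Each rescue is another stable line than the tag-only line of the knockdown, so these comparisons change the line as well as MYB. Against the knockdown 36 were higher and 60 lower in the wild-type rescue (27.4%), against 37.6% of all genes, of which 20.6% were higher and 16.9% lower. With D152V 23 were higher and 29 lower (14.9%), against 25.1% of all genes (13% higher, 12% lower). The median antisense changes were -0.11 and -0.03, beside 0.03 and 0.02 over all genes, and without MYB_KnockDown replicate 1 they were -0.050 and -0.020, beside 0.032 and 0.020. The partners had 73 higher and 52 lower (45.0%) with wild-type MYB and 52 higher and 33 lower (30.6%) with D152V, and without MYB_KnockDown replicate 1 they had 85 and 58, and 66 and 45. Both comparisons use the same knockdown libraries, so their values are given side by side.

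PHLDA1-AS1 (chr12:76030494-76031378) and PHLDA1, a pleckstrin-like domain gene, rose together in both rescues. PHLDA1-AS1 held 0, 0.354 and 0.358 FPKM in the controls, 0.400, 0.564 and 0.276 after knockdown, 3.94, 3.80 and 4.38 with wild-type MYB and 2.11, 3.23 and 1.38 with D152V. PHLDA1 held 1.72, 0.926 and 1.15 FPKM after knockdown, 5.42, 7.49 and 7.45 with wild-type MYB and 2.69, 3.53 and 2.70 with D152V. Both genes were above the knockdown in every rescue library. Only in rescue libraries did PHLDA1-AS1 reach the 1 FPKM of the filter, so its calls in the rescues are not independent of the filter. With wild-type MYB the antisense RNA rose by 1.84 (SE 0.21, adjusted p = 0.000154) and PHLDA1 by 1.78 (SE 0.17, adjusted p = 5.75e-05). With D152V they rose by 1.16 (adjusted p = 0.00366) and 0.82 (adjusted p = 0.00742). Since 97.2% of the exonic bases of PHLDA1-AS1 lie under PHLDA1, these rows are not independent unless fragments were counted by strand.

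OIP5-AS1, also known as Cyrano, is a conserved noncoding RNA that binds and promotes the destruction of a microRNA, and OIP5 is a centromere protein. Only 3.39% of the exonic bases of OIP5-AS1 fall under OIP5. It held 28.7, 32.0 and 27.2 FPKM in the controls, 32.6, 31.9 and 39.5 after knockdown, 15.4, 18.4 and 16.8 with wild-type MYB and 18.7, 17.3 and 15.0 with D152V. OIP5 held 24.6, 25.2 and 33.1, then 48.0, 38.0 and 43.6, then 13.9, 15.9 and 19.9, then 14.6, 16 and 18.7. All 6 rescue libraries lay below all controls and knockdowns for both genes. Against the knockdown OIP5-AS1 fell by 0.99 (SE 0.13, adjusted p = 0.00034) with wild-type MYB and by 0.98 (adjusted p = 0.000668) with D152V, and OIP5 fell by 1.34 in both. The knockdown itself gave 0.23 for OIP5-AS1 (adjusted p = 0.232) and a called 0.63 for OIP5 (adjusted p = 0.0352).

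OTUD6B-AS1 went the other way. It held 70.8, 79.3 and 63.0 FPKM with wild-type MYB and 74.0, 77.1 and 76.5 with D152V, all above the 37.3 to 42.9 of the knockdown. It rose by 0.79 (SE 0.11, adjusted p = 0.000612) and 0.89 (adjusted p = 0.000586), and OTUD6B rose by 0.70 and 0.71 (adjusted p = 0.0279 and 0.0374). HNRNPK-AS1 held 8.95, 5.47 and 7.90 FPKM with wild-type MYB and 9.27, 9.72 and 6.69 with D152V, and rose by 1.80 (adjusted p = 0.00823) and 1.99 (adjusted p = 0.00899). Neither group overlaps the knockdown, and HNRNPK itself had 0.18 in both comparisons and no call. TMEM132D-AS1 held 400, 126 and 132 FPKM after knockdown, 104, 118 and 119 in the controls, 24.8, 22.9 and 25.7 with wild-type MYB and 30.6, 36.8 and 37 with D152V. Every rescue library lay below every control and knockdown library, and the falls against the knockdown were 2.90 and 2.41 (adjusted p = 0.000192 and 0.00108). ENTPD3-AS1 held 10.6, 3.76 and 5.46 FPKM after knockdown, 1.67, 1.46 and 3.08 with wild-type MYB and 2.77, 2.96 and 2.39 with D152V. It fell by 1.25 (adjusted p = 0.00734) and 0.94 (adjusted p = 0.0369), with no overlap, and without MYB_KnockDown replicate 1 the D152V value was -0.58 (adjusted p = 0.0616).

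**Figure D3:**
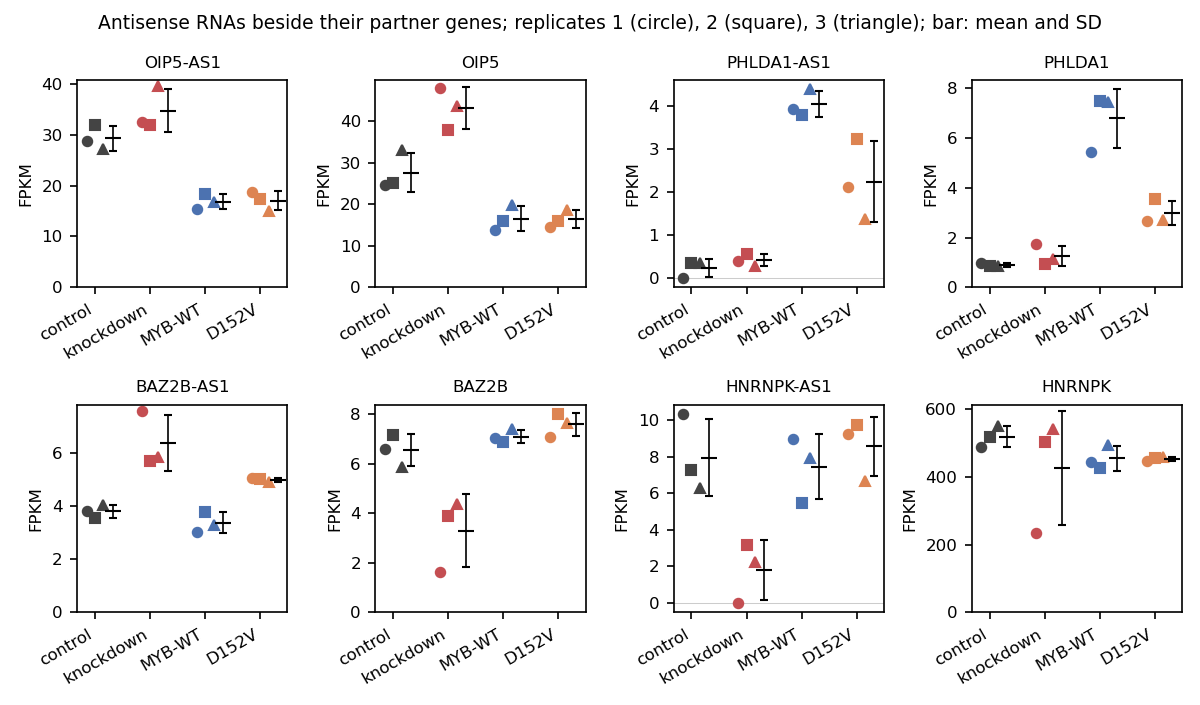
FPKM (linear axis) in each of 12 libraries of 4 antisense RNAs and their partners by group, each point a library and each bar the group mean with its SD. OIP5-AS1 and OIP5 are lower in all rescue libraries, while BAZ2B-AS1 and BAZ2B lie on opposite sides of the control after knockdown.

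Where both members of a pair were called with wild-type MYB against the knockdown, 34 pairs moved the same way and 10 moved apart. With D152V the counts were 12 and 3. The 10 that moved apart were CLN8-AS1, EPC1-AS2, CBLL1-AS1, ASH1L-AS1, BAZ2B-AS1, SEC24B-AS1, SPEN-AS1, KXD1-AS1 and TMPO-AS1, each lower beside a higher partner, and EFCAB10-AS1, higher beside a lower partner. Several were chosen for description after their values were seen. ASH1L encodes a histone methyltransferase: ASH1L-AS1 fell by 0.85 (adjusted p = 0.0158) while ASH1L rose by 1.02 (adjusted p = 0.00723), and with D152V they had -0.96 and 0.88, both called. ASH1L-AS1 held 3.66, 3.17 and 3.14 FPKM after knockdown, 1.15, 1.19 and 1.94 with wild-type MYB and 1.65, 0.92 and 1.12 with D152V, so neither rescue overlaps the knockdown. SPEN encodes a transcriptional corepressor: SPEN-AS1 held 2.37, 2.26 and 2.09 FPKM after knockdown and 1.24, 0.99 and 1.13 with wild-type MYB, and fell by 0.61 (adjusted p = 0.00253) while SPEN rose by 1.18. TMPO-AS1, opposite a gene of the nuclear lamina, fell by 0.45 (adjusted p = 0.0372) while TMPO rose by 0.50 (adjusted p = 0.0368). BAZ2B-AS1 fell by 0.75 (adjusted p = 0.00181) while BAZ2B rose by 0.98 (adjusted p = 0.00671). With D152V the 3 pairs that moved apart were USP3-AS1 (-1.07, with USP3 at 0.49), ASH1L-AS1 and ENTPD3-AS1 (-0.94, with the ectonucleotidase gene ENTPD3 at 0.79).

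Without MYB_KnockDown replicate 1 the wild-type comparison had 49 higher and 58 lower (30.6%, against 45.2% of all genes, 25.3% higher and 19.9% lower) and the D152V comparison 38 higher and 32 lower (against 32.4%, 16.6% higher and 15.9% lower). CBLL1-AS1 and TMPO-AS1 were then no longer called with wild-type MYB (adjusted p = 0.0741 and 0.0808). The 96 calls with wild-type MYB became 57 without MYB-WT_Rescue replicate 2, and the 52 with D152V became 34 and 26 without D152V_Rescue replicates 1 and 2. Among other named antisense RNAs in these comparisons, MCM3AP-AS1 (0.58, adjusted p = 0.0425), HOXB-AS3 (-0.72, adjusted p = 0.0283) and ZEB1-AS1 (0.56 with D152V, adjusted p = 0.0226, with ZEB1 at 1.34) lost their call under several alternatives, at adjusted p of up to 0.167, 0.0859 and 0.125.

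The rescue lines differed from each other in 37 antisense RNAs: 20 were higher and 17 lower with D152V than with wild-type MYB (10.6%), against 12.1% of all genes (5.96% higher, 6.19% lower). The partners had 20 higher and 15 lower (12.6%). The replicate numbers may pair these libraries, which is inferred from correlations alone. The fit with the replicate number as a block called 40, of which 35 were among the 37. Several differences were close to present against absent.

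EPHA5-AS1 (chr4:65669961-65693386), against an ephrin receptor gene, held 1.91, 1.78 and 1.33 FPKM with wild-type MYB and was listed at 0 in the 9 other libraries. EPHA5 followed the same pattern, at 0.740, 0.852 and 0.676 FPKM with wild-type MYB and 0 elsewhere. On the log2(FPKM + 1) scale the difference for EPHA5-AS1 was -1.41 (SE 0.13, adjusted p = 2.8e-05). EPHA5-AS1 passed the filter only through the wild-type rescue libraries, so this call is not independent of the filter. In LHFPL3-AS2 the D152V line was the empty one: it was listed at 0 in those 3 libraries, held 1.18, 1.80 and 1.96 FPKM with wild-type MYB and between 0.652 and 1.68 in controls and knockdowns (-1.39, SE 0.18, adjusted p = 0.000453). KLRK1-AS1, SUGCT-AS1 and PGR-AS1 were also lower with D152V, by 1.15, 1.39 and 1.10 (adjusted p = 0.000335, 0.00178 and 0.000272). PGR-AS1 lies against the progesterone receptor gene and held 1.74, 1.31 and 1.70 FPKM with wild-type MYB against 0.256, 0.259 and 0.0891 with D152V, with no overlap. PGR fell by 1.41 with it (adjusted p = 0.000109), and 41.1% of the exonic bases of PGR-AS1 lie under PGR.

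NR2F2-AS1 (chr15:96127360-96327361), against the gene of an orphan nuclear receptor, had the largest called difference upwards in the D152V line and has no exon under another tested gene. It held 8.18, 8.51 and 5.83 FPKM in the controls, 7.76, 7.93 and 8.64 after knockdown, 1.38, 3.17 and 2.18 with wild-type MYB and 9.84, 11.5 and 12.5 with D152V. The wild-type line was below all others. The difference was 1.95 (SE 0.20, adjusted p = 8.12e-05), while NR2F2 had 0.73 (SE 0.27, adjusted p = 0.119). TSPEAR-AS2 behaved alike in its levels: 0.549, 0.772 and 0.578 FPKM with wild-type MYB and 2.92 to 5.60 in the 9 other libraries, a difference of 1.82 (adjusted p = 6.68e-05). PAPPA-AS1, against a metalloprotease gene, was high in the D152V line alone, at 3.08, 3.35 and 2.76 FPKM with D152V against 0.190 to 0.502 in the 9 others (1.57, SE 0.14, adjusted p = 2.8e-05). All of its exonic bases lie under PAPPA, which averaged 0.228 FPKM and was not tested. ITGA9-AS1, against an integrin gene, held 2.39, 2.02 and 2.07 FPKM with D152V against 0.211 to 0.690 elsewhere (1.24, adjusted p = 0.000224). STEAP1B-AS1 held 2.98, 3.20 and 2.57 FPKM with D152V against 0.509 to 0.888 elsewhere (1.21, adjusted p = 0.000194), and STEAP1B had 0.20 (adjusted p = 0.502). In these 3 the D152V libraries overlap no other library. Only those libraries reached 1 FPKM, so these genes passed the filter through them alone and the calls are not independent of it.

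FOXD1-AS1 and PCED1B-AS1 rose together with their partners in the D152V line. FOXD1-AS1, all of whose exonic bases lie under the forkhead gene FOXD1, held 1.63, 2.31 and 1.02 FPKM with D152V and was listed at 0 with wild-type MYB. The differences were 1.38 (adjusted p = 0.00634) and 1.24 for FOXD1 (adjusted p = 0.000208). PCED1B-AS1 held 4.61, 4.44 and 8.33 FPKM with D152V against 1.78, 0.949 and 1.08, a difference of 1.55 (adjusted p = 0.0108) beside 2.45 for PCED1B, of which 4.83% of the antisense exonic bases are shared. KIF25-AS1, whose promoter is shown above, held 0.0852, 0.0847 and 0.0412 FPKM with wild-type MYB and 1.07, 1.31 and 1.18 with D152V (1.03, adjusted p = 0.00266). GATA2-AS1 held 5.45, 6.23 and 6.10 FPKM with wild-type MYB and 7.98, 8.03 and 8.98 with D152V, without overlap (0.43, adjusted p = 0.0246). Both members were called in 7 pairs, all moving the same way, and without MYB_KnockDown replicate 1 in 28, of which 25 moved the same way and 3 apart.

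**Figure D4:**
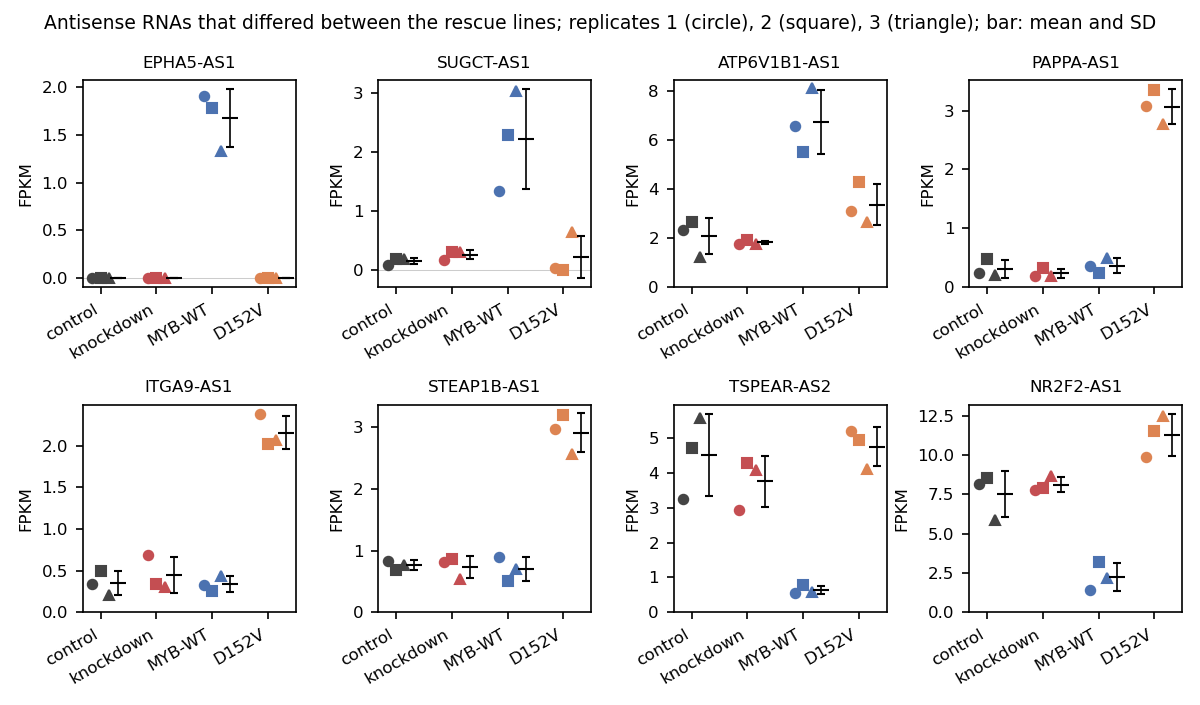
FPKM (linear axis) in each of 12 libraries of 8 antisense RNAs that differed between the rescue lines, by group, each point a library and each bar the group mean with its SD. EPHA5-AS1 is above 0 only with wild-type MYB, PAPPA-AS1 is high only with D152V, and NR2F2-AS1 is low only with wild-type MYB.

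Each library of either rescue line carries weight in these counts. The 37 calls became 19, 21 and 19 without D152V_Rescue replicates 1, 2 and 3, and 22, 18 and 24 without MYB-WT_Rescue replicates 1, 2 and 3. The shares of all genes in these fits are not given beside them. Leaving out a single library ended the call of GATA2-AS1 for each library of both lines (adjusted p of up to 0.101), of POT1-AS1 for most (-1.07, adjusted p = 0.0498, up to 0.186), of IGFL2-AS1 (-2.77, up to 0.0645), PCED1B-AS1 (up to 0.0515) and PRKAR1B-AS1 (-1.03, up to 0.0574). The other 12 of the 17 antisense RNAs named in this comparison kept theirs. Without MYB_KnockDown replicate 1, which is not part of the contrast but enters the shared estimate of spread, the count was 78 (47 higher and 31 lower, 22.3%, against 31.4% of all genes, 13.6% higher and 17.8% lower).

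Each rescue line was also set against the control line. With wild-type MYB 16 antisense RNAs were higher and 10 lower than in the control (7.43%), against 9.62% of all genes (5.04% higher, 4.58% lower). With D152V 13 were higher and 10 lower (6.57%), against 9.55% (4.61% higher, 4.94% lower). Both comparisons share the control libraries. PHLDA1-AS1 rose in both, by 2.04 (adjusted p = 0.000155) and 1.36 (adjusted p = 0.00179), as did HECW2-AS1 (1.24 and 1.35) and ZFPM2-AS1 (1.36 and 1.22). PHLDA1-AS1 passed the filter only through rescue libraries, so its calls here are not independent of the filter. OIP5-AS1 fell in both, by 0.76 (adjusted p = 0.0037) and 0.75 (adjusted p = 0.00365), as did TMEM132D-AS1 (2.17 and 1.68) and AFAP1-AS1 (1.42 and 2.03).

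HECW2-AS1 (chr2:196260024-196264204), within the locus of a ubiquitin ligase gene and sharing no exon with it, held 4.06, 3.33 and 6.07 FPKM in the controls, 10.2, 7.37 and 10.2 after knockdown, 9.36, 11.3 and 15.2 with wild-type MYB and 11.3, 11.6 and 15.4 with D152V. All 9 libraries given the MYB siRNA lay above all controls. AFAP1-AS1 (chr4:7754090-7778928) showed the reverse order, with 5.15, 6.34 and 4.41 FPKM in the controls, 1.73, 4.06 and 3.01 after knockdown, 1.12, 1.44 and 1.46 with wild-type MYB and 0.472, 0.637 and 0.480 with D152V. Its knockdown and rescue libraries all lay below the controls, and its falls against the control were called in both rescue lines (adjusted p = 0.00164 and 0.000149). In the wild-type comparison ZFPM2-AS1 was the antisense RNA with a called partner moving against it: it rose by 1.36 with wild-type MYB (adjusted p = 0.0142) while ZFPM2, the gene of a GATA cofactor, fell by 0.87 (adjusted p = 0.021). ZFPM2-AS1 held 4.22, 1.98 and 1.72 FPKM in the controls and 9.42, 5.44 and 9.58 with wild-type MYB, which do not overlap, and it shares no exonic base with ZFPM2. In that comparison 3 pairs moved apart and 22 the same way without MYB_KnockDown replicate 1. CCDC144NL-AS1 held 28.0, 28.5 and 26.0 FPKM in the controls and 17.8, 18.2 and 16.4 with D152V, and fell by 0.62 (adjusted p = 0.0111) beside -0.77 for CCDC144NL.

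The counts against the control moved with single libraries. With wild-type MYB the 26 became 59 without MYB_KnockDown replicate 1 (29.7% of all genes) and 17 without siRNA_Control replicate 2, and with D152V the 23 became 63 (27.7% of all genes), 14 and 15 without MYB_KnockDown replicate 1, siRNA_Control replicate 2 and D152V_Rescue replicate 3. Several alternatives ended the call of ZFPM2-AS1 in both lines (adjusted p of up to 0.0677 and 0.1), and CCDC144NL-AS1 lost its call with D152V without D152V_Rescue replicate 3 or siRNA_Control replicate 2 (up to 0.0553).

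Over all 281 pairs the antisense RNA and its partner changed in the same direction in 56.9% of pairs in the knockdown against the control, 60.9% and 57.7% in the wild-type and D152V rescues against the knockdown, 64.4% between the rescue lines, and 59.8% and 63.3% in the rescues against the control. The share was 48.8% in the knockdown and 54.8% and 57.3% in the rescues against it without MYB_KnockDown replicate 1. The relation differed with the exonic bases shared. Across the 49 pairs with no shared exonic base Pearson's r of the changes was 0.07, 0.10, 0.10, 0.11, 0.11 and -0.06 in that order of comparisons. Across the 36 pairs in which at least 50% of the antisense exonic bases lie under the partner it was 0.45, 0.58, 0.57, 0.64, 0.77 and 0.79, and across the 196 pairs between, 0.12, 0.29, 0.22, 0.55, 0.53 and 0.61. Without the PHLDA1 pair, left out after the values were seen because it lies far from the others, the class of at least 50% had r of 0.45, 0.50, 0.54, 0.60, 0.56 and 0.72 over 35 pairs. These correlations describe genes measured in the same libraries, which are not independent, and the difference between the classes was not tested. Without MYB_KnockDown replicate 1 the knockdown values were 0.26, 0.05 and 0.18 for the classes of none, under 50% and at least 50%, so the order there rests on that library. With wild-type MYB against the knockdown they were 0.22, 0.34 and 0.49, and with D152V 0.18, 0.34 and 0.46. The 86 pairs whose starts lie within 1 kb had r of 0.14, 0.31, 0.19, 0.54, 0.46 and 0.44. The part of fragments assigned to the wrong strand in these values was not tested.

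**Figure D5:**
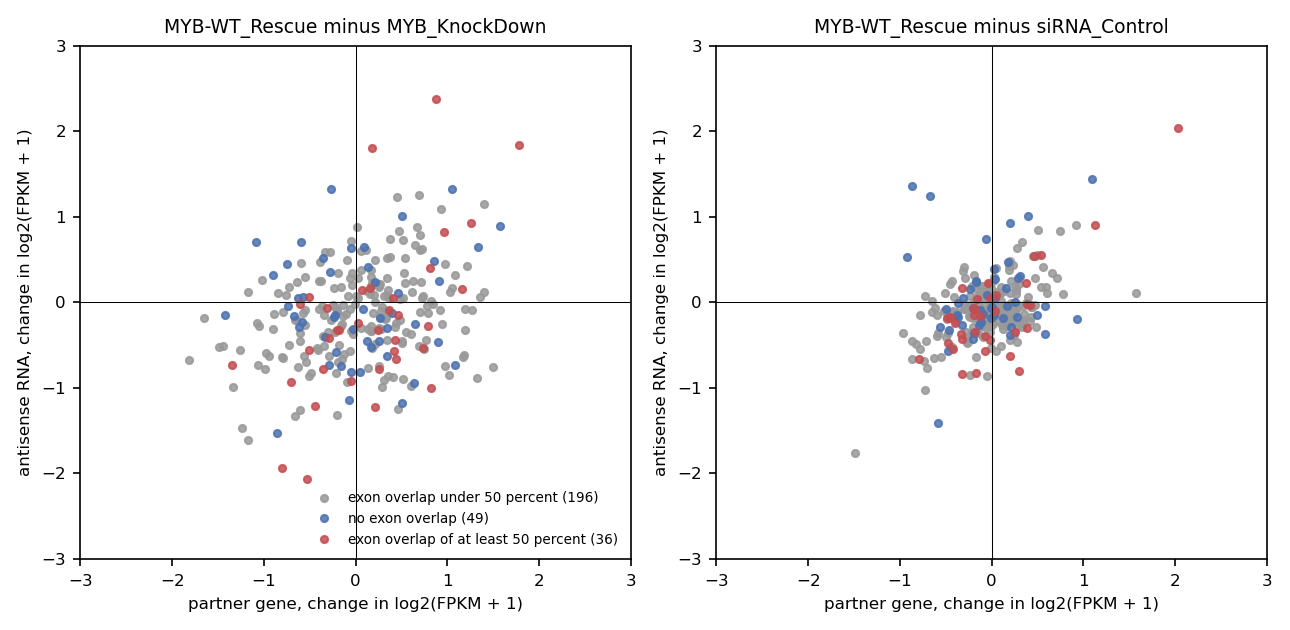
log2 change of each antisense RNA against that of its partner for 281 pairs, for the wild-type rescue against the knockdown (left) and against the control (right), coloured by the share of antisense exonic bases under the partner. The 36 pairs with at least 50% shared bases have r of 0.58 and 0.77, and the 49 with none have 0.10 and 0.11.

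Without MYB_KnockDown replicate 1 the pairs with both called, same direction and opposite, were 7 and 1 in the knockdown, 35 and 14 with wild-type MYB and 21 and 5 with D152V against the knockdown. With all 12 libraries the median antisense change minus partner change was 0.12 after knockdown, -0.16 and -0.09 in the wild-type and D152V rescues against it, and 0.08 between the lines. The first 3 were 0.12, -0.084 and -0.057 without MYB_KnockDown replicate 1. In MYB_KnockDown replicate 1 the antisense RNAs lay at a median of 0.18 above the control mean and the partners at -0.17. In replicates 2 and 3 the antisense medians were 0.01 and 0.00 and the partner medians -0.064 and -0.063. The median pair difference against the control mean was 0.288 in replicate 1 and 0.070 and 0.124 in replicates 2 and 3.

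Other noncoding RNA classes were counted beside them under the same fit. The shares of all genes were 11.3% after knockdown, and 37.6% and 25.1% in the wild-type and D152V rescues against it. Of 23 snoRNA host genes (SNHG), 4 were higher and 0 lower after knockdown (17.4%). In each rescue 0 were higher and 11 lower (47.8%). Of 126 divergent transcripts (-DT), 9 were higher and 1 lower after knockdown (7.94%). With wild-type MYB they had 4 and 35 (31.0%), and with D152V 4 and 16 (15.9%). Of 156 LINC symbols, 4 were higher and 11 lower after knockdown (9.62%). With wild-type MYB they had 36 and 18 (34.6%), and with D152V 29 and 14 (27.6%). These counts were not recomputed under another scaling or without MYB_KnockDown replicate 1.

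Of the antisense RNAs listed for their known roles, MYB-AS1, CDKN2B-AS1, HOXA-AS2 and PSMB8-AS1 lay under the filter, CDKN2B-AS1 at 0 in every library and MYB-AS1 above 0 in only 3, at 0.338 to 0.731 FPKM. FGD5-AS1 held 22.9 FPKM in MYB_KnockDown replicate 1 and 44.4 to 53.8 in the 11 other libraries, and neither it nor HOXB-AS1 was called in any comparison. Members nearest the threshold were CD27-AS1, ARF4-AS1 and ATP8B1-AS1, each reaching 1.01 FPKM in its library of rank 3, and just outside lay KANSL1-AS1 (0.994) and FOXD3-AS1 (0.995).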

How the data were processed

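RNA sequencing of poly(A) RNA, prepared with a stranded TruSeq kit per the labels' protocols, covers 12 libraries grouped by their titles. The authors deposited 1 table of FPKM values. Per the submitters' processing notes it rests on bcl2fastq 2.17.1.14, Trimmomatic 0.33, TopHat2 2.0.13, Cufflinks 2.2.1 and GRCh38. The sources used here give neither the annotation nor the use of strand. Whole reads could not be recovered: a median of 4.91% of the ratios between low values came within 2% of their pair median. So depth is unknown, its effect on precision cannot be stated, and no count model was used.

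Genes at 1 FPKM or more in at least 3 libraries (13393) were analysed as log2(FPKM + 1), with a pseudocount of 1, by limma 3.58.1 (R 4.3.3) with group means, a variance trend, 8 residual degrees of freedom and Benjamini-Hochberg adjustment. Python 3.11.15, pandas 2.3.3, scipy 1.17.1 and matplotlib 3.10.9 made the tables and figures. The steps were tested on simulated data. Coordinates of 331 antisense RNAs and 254 promoters come from RefSeq on GRCh38.p14. Exon overlap and strand come from a GENCODE annotation placed on GRCh37, with the strand equal in all 254 promoters.

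Members and lists were chosen with earlier results of these data known. Named genes were the 8 largest called changes in each direction of each comparison, the 10 highest means, a list of antisense RNAs with known roles, their partners, and 3 on each side of the filter. RUNX1-AS1 and EIF3J-AS1, on that list, are not used here, and some genes the rule takes are not reported here. Alternatives were a pseudocount of 0.1, no filter, median-ratio scaling, quantile normalization, the replicate number as a block, only the 6 libraries compared, and each library left out. Deviations from group means correlated at 0.153 to 0.233 for same-numbered libraries of the rescue lines and at -0.220 to 0.062 for others. Numbers may therefore pair those lines, but this rests on the correlations alone. For the control and the knockdown the ranges were 0.0376 to 0.132 and -0.146 to 0.0311, which are also apart but lie close together. In the other combinations of groups the ranges overlapped. P-values measure the spread between libraries of each line.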

Additional observations from a re-analysis of the deposited data

Results flagged for a closer look

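Each value here is a difference between the rescue lines that limma called (D152V minus wild-type MYB, in log2(FPKM + 1), Benjamini-Hochberg over all tested genes). It is the same as the difference of their changes against the knockdown, since both use the same knockdown libraries. The antisense RNAs higher with D152V were NR2F2-AS1 (1.95), TSPEAR-AS2 (1.82), PAPPA-AS1 (1.57), PCED1B-AS1 (1.55), FOXD1-AS1 (1.38), ITGA9-AS1 (1.24), STEAP1B-AS1 (1.21), KIF25-AS1 (1.03) and GATA2-AS1 (0.43). Those lower were IGFL2-AS1 (-2.77), EPHA5-AS1 (-1.41), LHFPL3-AS2 (-1.39), SUGCT-AS1 (-1.39), KLRK1-AS1 (-1.15), PGR-AS1 (-1.1), POT1-AS1 (-1.07) and PRKAR1B-AS1 (-1.03). Of these 17, EPHA5-AS1, FOXD1-AS1 and LHFPL3-AS2 were listed at 0 in every library of a line. EPHA5-AS1, PAPPA-AS1, ITGA9-AS1 and STEAP1B-AS1 are among those that passed the filter only through the line in which they are high. The lines were made separately, and the line and its MYB form cannot be told apart.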

How the results depend on the processing

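Depth is unknown, the filter keeps genes near 1 FPKM, where a few fragments set the value, and strand handling is not given, so shared exonic bases limit every pair. Of 136 results for single genes under 18 alternatives each (2448 values), 2128 kept direction and side of the threshold, 320 kept direction only and 0 reversed. Of the 136, 74 kept their call throughout.

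Without the filter the called antisense RNAs were 7 (main value 23) in the knockdown against the control, 58 (96) in the wild-type rescue and 36 (52) in the D152V rescue against the knockdown, and 25 (37) between the rescue lines, with fewer calls also for both rescues against the control at 22 (26) and 19 (23). With only the 6 libraries compared they were 0, 30, 17, 60, 57 and 58, the last 2 being the wild-type and D152V rescues against the control. In the first, 52 had an unadjusted p under 0.05. Leaving out single libraries gave 1 to 45, 57 to 107, 26 to 70, 18 to 78, 17 to 59 and 14 to 63. With the replicate number as a block they were 26, 97, 58, 40, 29 and 26. Beside counts under alternatives, here and above, shares of all genes are given only for leaving out MYB_KnockDown replicate 1. No swing in the other counts is called particular to the antisense RNAs. Between the rescue lines, where numbers may pair libraries, the block ended no named call. Elsewhere it ended 3 calls, among them MCM3AP-AS1 in the wild-type rescue against the knockdown (adjusted p = 0.051). The others were NFATC2IP-AS1 and SCOC-AS1 in the knockdown against the control (adjusted p = 0.0507 and 0.0533). Quantile normalization moved the median antisense change minus partner change from 0.08 to 0.034 between the rescue lines and from 0.03 to -0.028 for D152V against the control, and leaving out single libraries gave 0.014 to 0.045 for the latter. The cause of these shifts was not tested.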
